A study of Homo sapiens with 12 samples.

Results

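Homologous recombination repairs DNA double-strand breaks by copying an intact template, and the Fanconi anaemia pathway clears crosslinks between the strands of DNA. The 37 genes described here encode proteins of both pathways: nucleases that resect broken ends, BRCA1, BRCA2 and their partners, subunits of the RAD51C complexes, strand exchange motors, helicases, the Fanconi core complex and its substrate, and nucleases that cut branched DNA. A row of the deposited table belonged to this group if a member was among its comma-separated gene names and if it reached an FPKM (fragments per kilobase of transcript, scaled to the library's total) of at least 1 in at least 2 columns. All 37 genes had such a row. In all, 44 of the 57908 rows named a member, and 39 of them passed, out of 16026 passing rows. The 5 rows that failed were 3 further loci of RAD50 and 2 further loci of DNA2.

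In recombination, the MRE11-RAD50-NBN complex and RBBP8 start the trimming of a broken end, and EXO1 or DNA2 extends it. BRCA1-BARD1, PALB2 and BRCA2 then act on the single strand, the complexes that contain RAD51C assist them, and RAD54L helps the strand invade the sister chromatid. In the Fanconi pathway, a core complex of many subunits, with FANCL as the ubiquitin ligase and UBE2T as its conjugating enzyme, marks the FANCD2-FANCI clamp at a stalled fork. These genes are expressed mainly in proliferating cells, with many of them highest in S phase and G2.

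The cells were HCT116, an established human colorectal carcinoma line. Cells received a plasmid for a control (called GFP in the sample titles and an empty vector in the design text; GFP cells), for NSE4A-flag (NSE4 cells) or for SMC5-flag (SMC5 cells). NSE4A, the product of NSMCE4A, and SMC5 are subunits of the SMC5/6 complex, a ring-shaped ATPase that acts in recombination repair. At 24 h after transfection each culture was split, and the portions received PBS or 1000 nM doxorubicin, an anthracycline that traps topoisomerase II on DNA, for 24 h. All 6 groups were thus transfected cells of 1 line, labelled wild type, and had 2 libraries each; expression from the plasmids was transient, and the sources used here do not give the promoter that drives it. The study asked how the SMC5/6 complex acts on growth and on the response to doxorubicin, and for these genes the comparisons ask whether the drug, a subunit plasmid or their combination changed expression.

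The 2 libraries of doxorubicin-treated SMC5 cells shared 1091 identical values above 0, against 0 in each of the other 5 pairs. The difference between them was under the sampling noise, so their mean served as 1 sample, and 11 samples remained. Whether the 2 libraries of each other group are separate cultures is not stated, so p-values reflect only the spread among libraries, which may be technical. Because cultures were split, PBS and doxorubicin samples of a plasmid may share a culture. Which samples would pair is not stated, and the main fit did not pair them. The spacing of low FPKM values put the depth at 13.3 to 19.95 M (mega) fragments per library. The plasmid genes matched their labels: NSMCE4A was at 4069 to 6287 FPKM in NSE4 libraries and at most 89.4 FPKM elsewhere, and SMC5 was at 772 to 979 FPKM in SMC5 libraries and at most 34.4 FPKM elsewhere. Of the epithelial markers, EPCAM (120 to 146 FPKM), KRT8 and CDH1 were present in every library, whereas LGR5 (at most 0.634 FPKM) and VIL1 (at most 2.43 FPKM) were low or near 0. Of 5 fibroblast markers COL1A1 was at 15.6 to 26.96 FPKM, and the other 4 summed to 0.114 to 0.424 FPKM with PBS and 0.456 to 1.35 FPKM with doxorubicin. PDGFRB was at most 0.158 FPKM with PBS and at 0.424 to 1.21 FPKM with doxorubicin. The leukocyte markers PTPRC and CD3E summed to at most 0.0755 FPKM and the endothelial markers to at most 0.331 FPKM, while CD14, at a locus that also names NDUFA2, was at 85.2 to 99.1 FPKM with PBS and 112 to 127 FPKM with doxorubicin. Of the kidney and neural markers PAX2 was at 2.31 to 3.85 FPKM and the other 2 were under 1 FPKM.

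Doxorubicin raised more of these genes than it lowered in each of the 3 backgrounds, with RAD51C rising most and NBN falling most among the members called. In GFP cells 16 of the 38 member loci tested rose and 3 fell, where 17% of all 15833 loci tested rose and 14.1% fell (31.1% called). In NSE4 cells 12 members rose and 1 fell, against 16.3% and 13.9% of all loci (30.2% called), and in SMC5 cells 7 rose and 1 fell, against 11% and 9.87% (20.9% called). RAD51C, RAD54L, BLM, EME1, FANCE, XRCC2 and RMI1 rose in all 3 backgrounds, and NBN fell in all 3. These 7 loci are 18.4% of the members, and 9.22% of all loci rose in all 3 backgrounds. The share of all loci that fell in all 3 was 8.25%. The median log2 change of the members was 0.46, 0.38 and 0.36 in GFP, NSE4 and SMC5 cells, beside 0.02, 0.03 and 0.02 for all loci. A further 4 members rose in 2 backgrounds and 6 in 1, while WRN and FANCC fell in GFP cells and 18 loci were called in none. Shares of all loci matching these last counts were not computed, so the counts do not set the members apart. Calls came from limma on log2(FPKM + 1) with Benjamini-Hochberg adjustment over all loci tested, at a threshold of 0.05. With quantile normalization or median-of-ratios scaling, XRCC2 and RMI1 lost their calls in NSE4 cells, so the count of 7 depends on the scaling. Their limma adjusted p was 0.0646 and 0.0518 with the first and 0.0617 and 0.0537 with the second. XRCC2 in NSE4 cells also lost its call with a pseudocount of 0.1 (adjusted p = 0.051). Because RNA came from whole cultures, fewer cells of a kind and less RNA per cell cannot be told apart. PDGFRB, LGR5, VIL1, KRT8 and the CD14 locus were also higher with doxorubicin, and the KRT18 locus was lower, as given above. The part of these markers in the results was not tested.

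The number of calls within a background changed when 1 library was left out, which also leaves fewer samples to test. The shares of all loci called in these fits are not given here. A call could be lost with the change itself kept. BLM in GFP cells had a log2 change of 0.78 with all libraries. Its call was lost with any 1 of the GFP libraries left out, at changes of 0.72 to 0.85. The 19 calls in GFP cells became 11 without the first and 6 without the second PBS library, and 13 without the first and 7 without the second doxorubicin library. The 13 calls in NSE4 cells became 5 without the first and 16 without the second PBS library, and 4 without either doxorubicin library. The 8 calls in SMC5 cells became 3 without the first and 5 without the second PBS library. Of the 40 calls 11 held with any 1 library left out, and 0 changed direction. The directions could not change in this way, because samples of the treatments did not overlap for any called member in the background of its call. The 11 were RAD51C, NBN and FANCE in all 3 backgrounds and RAD54B and RMI1 in GFP cells. Without NSE4 PBS library 1, log2 changes in NSE4 cells shrank over 1.5 times and lost their calls for RAD54L (0.88 to 0.46), BLM (0.81 to 0.49), EME1 (0.84 to 0.55) and XRCC2 (0.53 to 0.32). The same held for FANCA in NSE4 cells without doxorubicin library 2 (0.59 to 0.37), and in GFP cells for RMI2 without doxorubicin library 2 (0.58 to 0.38) and for FANCC without doxorubicin library 1 (-0.58 to -0.31).

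For single members, the doxorubicin effect was therefore also averaged over the 3 backgrounds in the same fit, a comparison chosen after the values were seen. In it 21 members rose and 5 fell, where 28% of all loci rose and 23.6% fell (51.6% called), and 12 did not pass. The median member change was 0.37, beside 0.03 for all loci. Of these 26 calls 20 held in every alternative processing and with any 1 library left out; the exceptions were PALB2, FANCD2, MUS81, RBBP8, RAD51D and FANCC. All 5 doxorubicin samples lay above all 6 PBS samples for 15 members, and all lay below them for 3 members, NBN, WRN and FANCC. Among all loci tested, 22% were separated upward and 18.6% downward in this way. Log2 changes below are on this averaged scale unless a background is named.

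**Figure D1:**
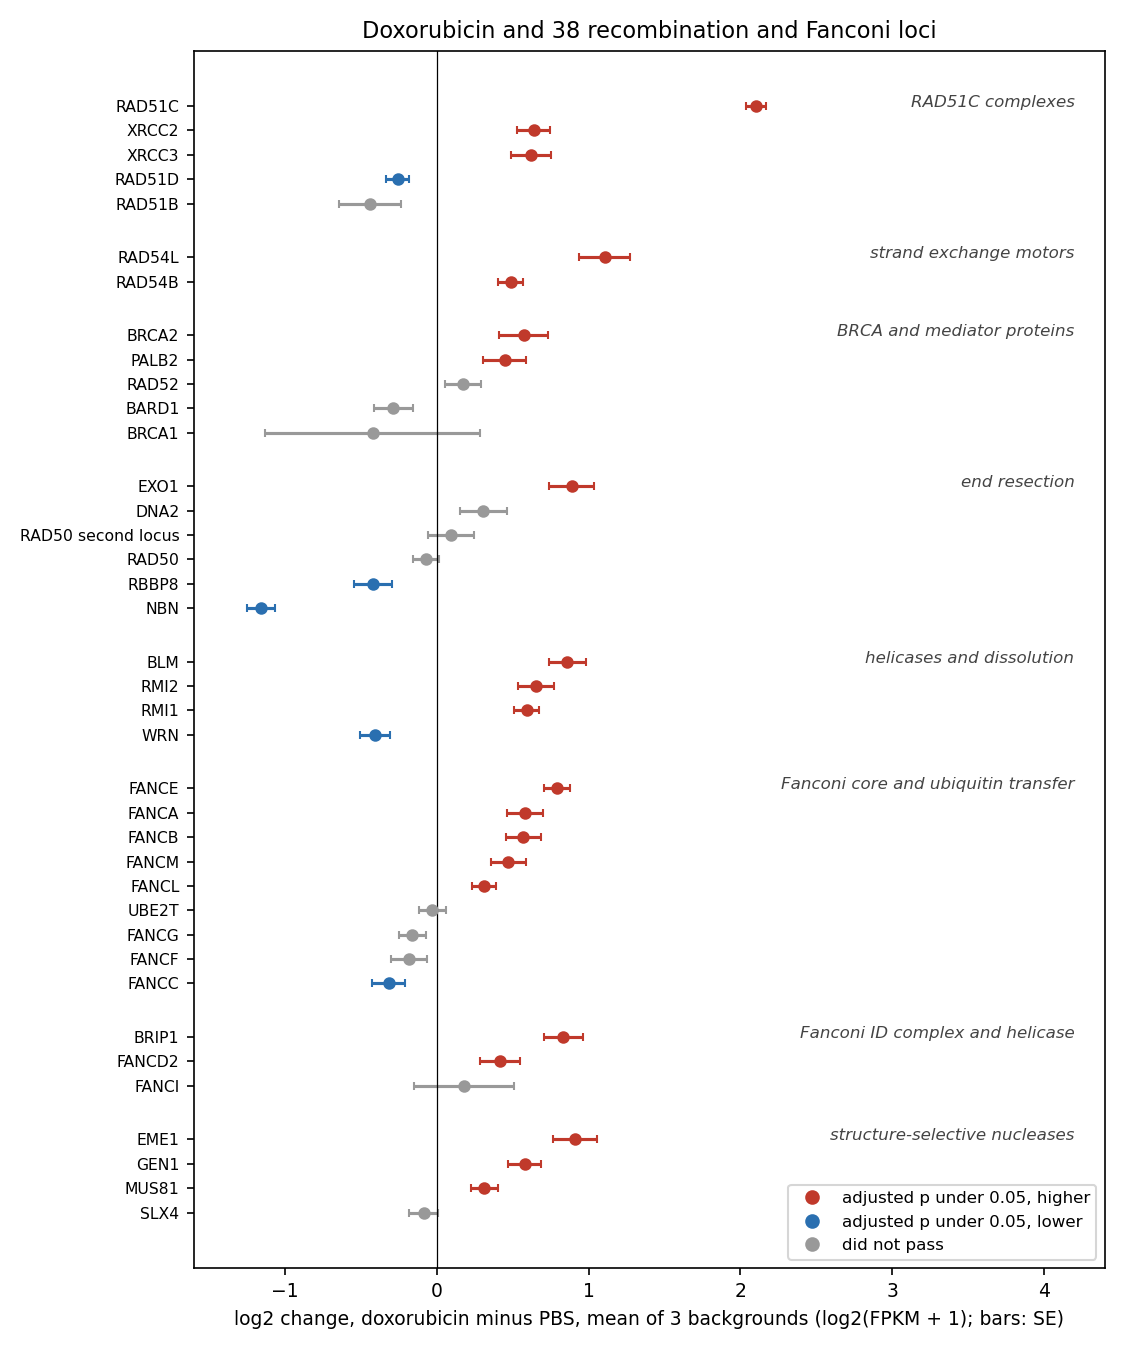
Log2 change of FPKM + 1 with doxorubicin, averaged over 3 backgrounds (x axis), for each of 38 member loci (y axis, grouped by role); points are estimates and bars are SE, coloured by the test. RAD51C, at 2.10, lies far to the right of the other members, and NBN, at -1.16, is the lowest.

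Of the subunits of the RAD51C complexes, RAD51C, XRCC2 and XRCC3 rose in the average and RAD51B did not pass. The RAD51D locus fell, a call that was lost without some single libraries and cannot be assigned to RAD51D alone. RAD51C belongs to both complexes, one with RAD51B, RAD51D and XRCC2 and the other with XRCC3. RAD51C stood at 46.1 and 43.5 FPKM in GFP, 43.5 and 51.8 FPKM in NSE4 and 43.8 and 43.1 FPKM in SMC5 cells given PBS. RAD51C after doxorubicin was at 182 and 199 FPKM in GFP cells, at 209 and 199.9 FPKM in NSE4 cells and at 198 FPKM in the single SMC5 sample. Every doxorubicin sample was more than 3 times the highest PBS sample, and the backgrounds lay close together within each treatment. RAD51C rose by 2.10 (SE 0.06, adjusted p = 5.71e-07) on the averaged log2 scale, a mean 4.36-fold higher FPKM, and among 15833 loci it ranked 98th, 97th and 100th from the highest in GFP, NSE4 and SMC5 cells. The change in NSE4 cells differed from that in GFP cells by 0.02 (SE 0.15, adjusted p = 1), and that in SMC5 cells by 0.10 (SE 0.16, adjusted p = 1).

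XRCC2 works beside RAD51C in the larger complex. XRCC2 stood at 4.59 and 3.42 FPKM in GFP, 3.11 and 4.52 FPKM in NSE4 and 3.51 and 3.3997 FPKM in SMC5 cells given PBS. XRCC2 after doxorubicin was at 6.24 and 6.999 FPKM in GFP cells, at 6.02 and 5.75 FPKM in NSE4 cells and at 6.61 FPKM in the single SMC5 sample. All doxorubicin samples were above all PBS samples, at a level far under that of RAD51C. XRCC2 rose by 0.64 (SE 0.11, adjusted p = 0.00143) on the averaged log2 scale. XRCC3 is the partner of RAD51C in the smaller complex. XRCC3 stood at 14.1 and 16.5 FPKM in GFP, 15.5 and 17.2 FPKM in NSE4 and 11.98 and 17.8 FPKM in SMC5 cells given PBS. XRCC3 after doxorubicin was at 24.2 and 25.1 FPKM in GFP cells, at 19.1 and 27.99 FPKM in NSE4 cells and at 24.8 FPKM in the single SMC5 sample. The samples did not overlap, although NSE4 cells given the drug spread widely. XRCC3 rose by 0.62 (SE 0.13, adjusted p = 0.00463) on the averaged log2 scale; by background it passed in GFP cells alone. The remaining subunits went the other way or did not pass. RAD51D, at a locus that also names RFFL, was at 12.6 to 15.5 FPKM with PBS and 10.4 to 12.9 FPKM with doxorubicin, and it fell by 0.26 on the averaged log2 scale (SE 0.08, adjusted p = 0.0215). That call was lost without SMC5 PBS library 2, GFP doxorubicin library 1 or NSE4 doxorubicin library 1 (adjusted p = 0.0509, 0.0504 and 0.0508). RAD51B was at 4.42 to 8.52 FPKM with PBS and 3.05 to 7.35 FPKM with doxorubicin, with a log2 change of -0.44 (SE 0.21, adjusted p = 0.106).

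Promoter sequence is shown for the 7 members that rose in all 3 backgrounds, so that their letters can be compared. The stretches hold the 200 bases before the annotated start from the RefSeq promoter table (GRCh38.p14), 5′ to 3′ on the gene's strand, with motif matches in capitals. The motifs were the CCAAT box (CCAAT), the E2F letters TTTGGCGC, TTTCCCGC, TTTGCCGC and TTTCGCGC, the CHR element TTTGAA and the p53 consensus, searched on both strands of 250 bases before each start; CCAAT on the reverse strand reads ATTGG.
RAD51C, chr17:58692373-58692572, plus strand: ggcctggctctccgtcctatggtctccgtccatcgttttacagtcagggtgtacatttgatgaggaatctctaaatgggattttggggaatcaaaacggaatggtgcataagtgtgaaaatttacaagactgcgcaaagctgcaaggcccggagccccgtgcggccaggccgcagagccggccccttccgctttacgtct
RAD54L, chr1:46247488-46247687, plus strand: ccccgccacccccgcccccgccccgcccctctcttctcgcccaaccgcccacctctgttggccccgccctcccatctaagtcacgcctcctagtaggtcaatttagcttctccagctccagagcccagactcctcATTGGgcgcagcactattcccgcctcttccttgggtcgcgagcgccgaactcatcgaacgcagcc
EME1, chr17:50373029-50373228, plus strand: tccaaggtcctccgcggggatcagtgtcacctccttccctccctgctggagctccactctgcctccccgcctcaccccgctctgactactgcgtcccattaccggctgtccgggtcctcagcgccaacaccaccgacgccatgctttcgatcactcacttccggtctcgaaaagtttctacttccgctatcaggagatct
BLM, chr15:90717146-90717345, plus strand: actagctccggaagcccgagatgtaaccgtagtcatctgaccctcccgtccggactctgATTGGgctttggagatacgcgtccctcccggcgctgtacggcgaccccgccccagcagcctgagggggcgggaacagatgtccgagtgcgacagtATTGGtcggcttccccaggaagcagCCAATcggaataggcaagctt
FANCE, chr6:35452138-35452337, plus strand: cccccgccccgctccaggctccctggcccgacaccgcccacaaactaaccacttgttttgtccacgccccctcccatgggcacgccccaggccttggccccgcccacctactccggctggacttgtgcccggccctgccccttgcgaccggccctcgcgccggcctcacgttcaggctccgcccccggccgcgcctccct
XRCC2, chr7:152676142-152676341, minus strand: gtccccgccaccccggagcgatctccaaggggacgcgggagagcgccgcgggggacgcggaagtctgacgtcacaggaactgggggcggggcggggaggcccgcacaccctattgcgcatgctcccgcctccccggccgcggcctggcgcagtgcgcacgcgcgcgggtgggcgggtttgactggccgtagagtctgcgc
RMI1, chr9:83980159-83980358, plus strand: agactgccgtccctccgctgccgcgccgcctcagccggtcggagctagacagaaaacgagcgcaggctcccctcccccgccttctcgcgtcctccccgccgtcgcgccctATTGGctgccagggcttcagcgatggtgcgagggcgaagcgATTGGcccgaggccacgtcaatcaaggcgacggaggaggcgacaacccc

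The stretches of RAD51C, EME1, FANCE and XRCC2 hold none of the motifs searched. BLM holds 3 CCAAT matches, RMI1 holds 2 and RAD54L holds 1. Of the 37 genes 31 were in the promoter table, with 42 windows. A CCAAT match was in 33.3% of these windows and in 32% of all 35116 windows of the table, E2F letters in 7.14% and 2.79%, and the CHR letters in 7.14% and 13.3%. The E2F matches belonged to FANCA, FANCC and RMI1 (from another start than the stretch shown). On the averaged log2 scale FANCA and RMI1 rose and FANCC fell, and any part of these letters was not tested. The p53 consensus was searched as 2 adjoining decamers RRRCWWGYYY without a spacer, where R is A or G, W is A or T and Y is C or T. It was in 0 member windows and in 0.0171% of all windows, so its absence from 42 windows tells little. A match describes letters in a window, and the absence of one says only that those letters are not there.

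The strand exchange motors rose. RAD54L is a SWI/SNF-family translocase that acts during strand invasion. RAD54L stood at 8.33 and 6.53 FPKM in GFP, 5.85 and 11.3 FPKM in NSE4 and 5.79 and 5.57 FPKM in SMC5 cells given PBS. RAD54L after doxorubicin was at 13.2 and 18.5 FPKM in GFP cells, at 14.8 and 16.9 FPKM in NSE4 cells and at 17.2 FPKM in the single SMC5 sample. The samples did not overlap, with NSE4 PBS library 2 the highest of the PBS samples. RAD54L rose by 1.11 (SE 0.17, adjusted p = 7.70e-04) on the averaged log2 scale, the second largest rise among the members. RAD54B, a related translocase whose locus also names FSBP, was at 6.07 to 7.78 FPKM with PBS and 8.97 to 11.5 FPKM with doxorubicin, with no overlap. RAD54B rose by 0.49 (SE 0.08, adjusted p = 0.00136) on the averaged log2 scale.

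Among the BRCA proteins and mediators, none was called within a background, and BRCA2 and PALB2 passed in the average. BRCA2 binds single-stranded DNA during recombination, and PALB2 ties it to BRCA1. BRCA2 was at 1.57 to 3.72 FPKM with PBS and 2.84 to 4.86 FPKM with doxorubicin, and it rose by 0.57 (SE 0.16, adjusted p = 0.0163) on the averaged log2 scale. PALB2 was at 2.79 to 5.37 FPKM with PBS and 4.301 to 6.01 FPKM with doxorubicin, and it rose by 0.45 (SE 0.14, adjusted p = 0.0288) on the averaged log2 scale. The PALB2 call was lost without GFP PBS library 2 (adjusted p = 0.0694), SMC5 PBS library 2 (adjusted p = 0.0649), either GFP doxorubicin library (adjusted p = 0.0572 and 0.0597) or NSE4 doxorubicin library 2 (adjusted p = 0.0680). BARD1, which forms a ubiquitin ligase with BRCA1, was at 2.47 to 4.49 FPKM with PBS and 2.41 to 2.99 FPKM with doxorubicin and its log2 change was -0.29 (SE 0.13, adjusted p = 0.0975). RAD52, a single-strand annealing protein, was at 11.9 to 17.6 FPKM with PBS and 13.7 to 18.01 FPKM with doxorubicin, with a log2 change of 0.17 (SE 0.12, adjusted p = 0.246). Neither passed, and BRCA1 is described with the uneven loci.

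End resection genes divided. NBN, the subunit of the MRE11-RAD50-NBN complex that recruits the ATM kinase to breaks, was the member that fell most. NBN stood at 12.04 and 11.2 FPKM in GFP, 11.5 and 12.2 FPKM in NSE4 and 12.5 and 12.5 FPKM in SMC5 cells given PBS. NBN after doxorubicin was at 4.86 and 5.32 FPKM in GFP cells, at 3.84 and 5.46 FPKM in NSE4 cells and at 4.77 FPKM in the single SMC5 sample. Every doxorubicin sample was under every PBS sample, and the PBS values lay within a narrow band. NBN fell by 1.16 on the averaged log2 scale (SE 0.09, adjusted p = 2.38e-05), and NBN ranked 491st, 321st and 343rd from the lowest of 15833 loci in GFP, NSE4 and SMC5 cells. RAD50, its partner in the complex, was at 10.8 to 14.9 FPKM with PBS and 10.3 to 12.2 FPKM with doxorubicin at a locus that also names AC116366.3 and C5orf56, and its log2 change was -0.07 (SE 0.09, adjusted p = 0.518). The second RAD50 locus, just inside the expression threshold, reached 1.13 and 1.03 FPKM in 2 columns, and a DNA2 locus just outside it reached 1.04 FPKM in 1 column. MRE11, the nuclease of the complex, was not among the 37 genes and was looked up after the NBN values were seen: it rose by 0.59 on the averaged log2 scale (SE 0.10, adjusted p = 0.00134), from a range of 5.72 to 7.82 FPKM with PBS to 9.71 to 12.2 FPKM with doxorubicin.

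EXO1, the exonuclease that extends resection, went up. EXO1 stood at 7.997 and 4.96 FPKM in GFP, 5.41 and 8.92 FPKM in NSE4 and 5.24 and 5.003 FPKM in SMC5 cells given PBS. EXO1 after doxorubicin was at 13.5 and 14.8 FPKM in GFP cells, at 12.6 and 11.1 FPKM in NSE4 cells and at 10.7 FPKM in the single SMC5 sample. The samples did not overlap, and the single SMC5 sample was the lowest of those given the drug. EXO1 rose by 0.89 (SE 0.15, adjusted p = 0.00133) on the averaged log2 scale; by background it passed in GFP cells alone. RBBP8, also known as CtIP, which starts resection, was at 11.6 to 20.0005 FPKM with PBS and 8.84 to 12.1 FPKM with doxorubicin, and it fell by 0.42 on the averaged log2 scale (SE 0.12, adjusted p = 0.0214). That call was lost without GFP PBS library 1, GFP doxorubicin library 1 or NSE4 doxorubicin library 1 (adjusted p = 0.0510, 0.0502 and 0.0514). DNA2, the other long-range resection nuclease, was at 3.98 to 7.37 FPKM with PBS and 6.09 to 8.39 FPKM with doxorubicin, with a log2 change of 0.31 (SE 0.15, adjusted p = 0.131).

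**Figure D2:**
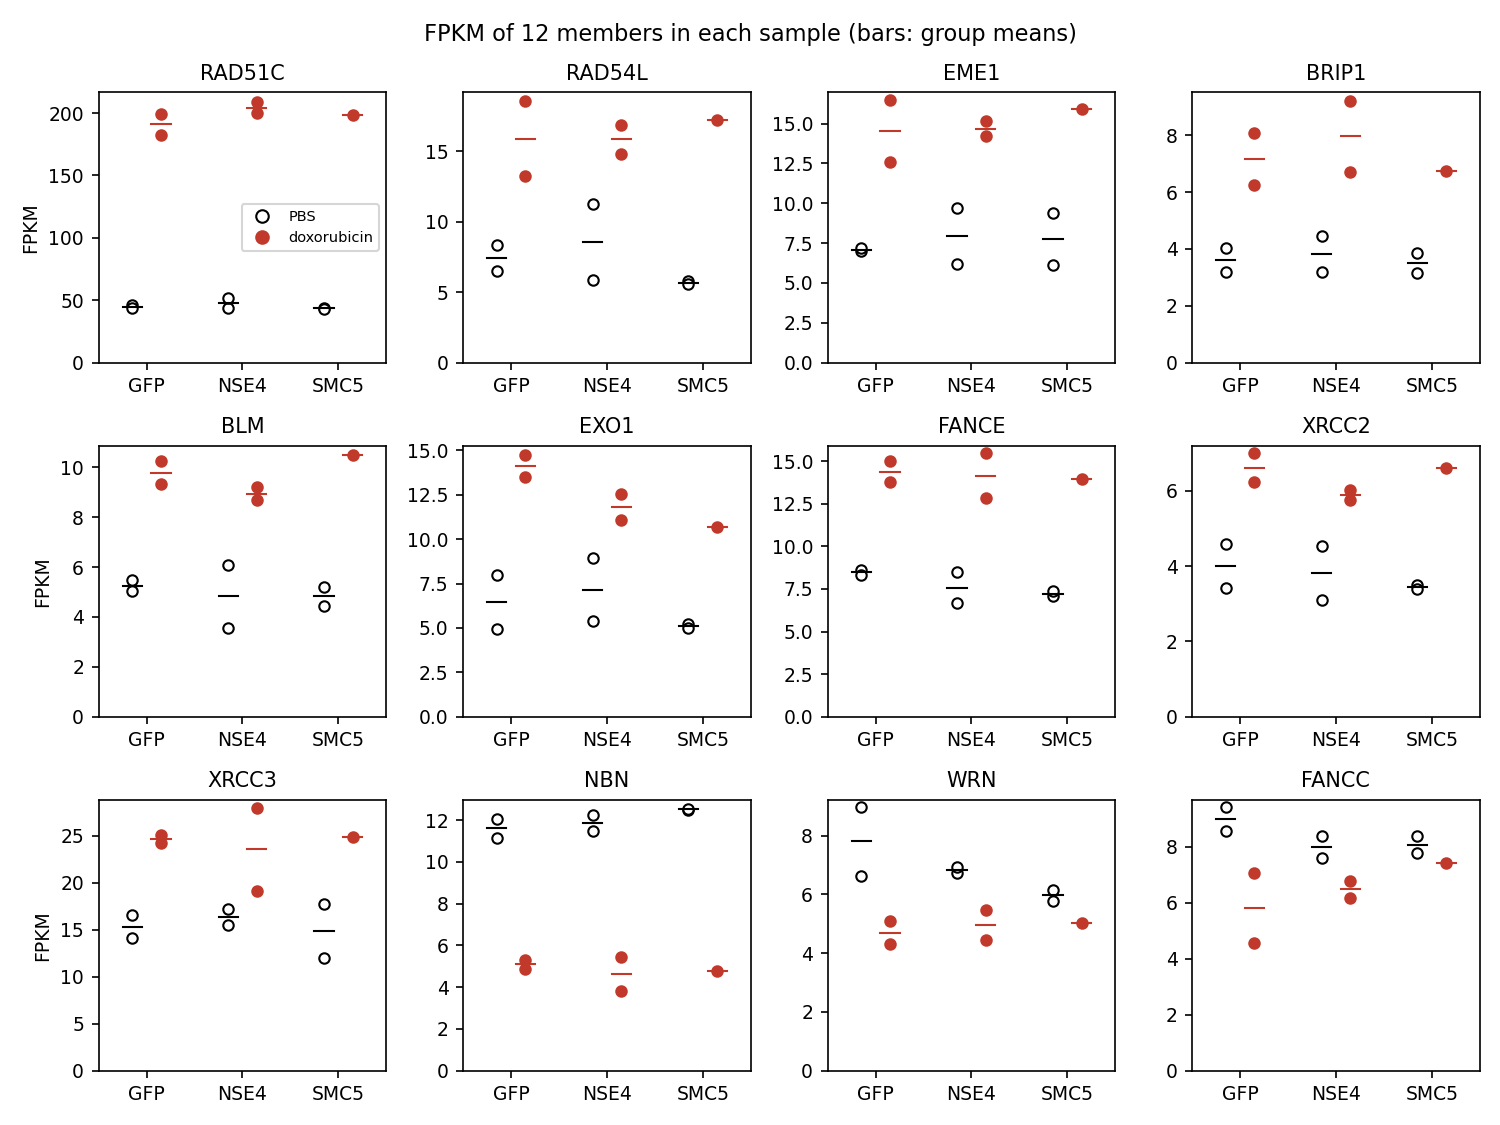
FPKM (y axis, linear from 0) of 12 members in each of 11 samples by background (x axis); open circles are PBS, filled circles doxorubicin and bars group means. RAD51C reaches 182 to 209 FPKM in all doxorubicin samples against 43.1 to 51.8 FPKM with PBS, while NBN, WRN and FANCC lie lower with doxorubicin.

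In the helicase and dissolution group BLM, RMI1 and RMI2 rose and WRN fell. BLM, RMI1 and RMI2 form a complex that dissolves double Holliday junctions together with topoisomerase III alpha. BLM is its helicase, mutated in Bloom syndrome. BLM stood at 5.48 and 5.03 FPKM in GFP, 3.56 and 6.08 FPKM in NSE4 and 5.22 and 4.44 FPKM in SMC5 cells given PBS. BLM after doxorubicin was at 9.31 and 10.3 FPKM in GFP cells, at 8.67 and 9.2004 FPKM in NSE4 cells and at 10.5 FPKM in the single SMC5 sample. The groups did not overlap, and NSE4 cells held both the lowest and the highest PBS value. BLM rose by 0.86 (SE 0.12, adjusted p = 5.49e-04) on the averaged log2 scale. RMI1 is a scaffold of the same complex. RMI1 stood at 7.58 and 6.42 FPKM in GFP, 6.33 and 7.97 FPKM in NSE4 and 6.45 and 6.86 FPKM in SMC5 cells given PBS. RMI1 after doxorubicin was at 11.8 and 12.5 FPKM in GFP cells, at 10.4 and 9.65 FPKM in NSE4 cells and at 10.7 FPKM in the single SMC5 sample. No sample overlapped between treatments. RMI1 rose by 0.59 (SE 0.08, adjusted p = 5.23e-04) on the averaged log2 scale.

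RMI2 is the smallest subunit of the BLM complex. RMI2 stood at 15.5 and 15.8 FPKM in GFP, 12.1 and 16.3 FPKM in NSE4 and 12.2 and 15.9 FPKM in SMC5 cells given PBS. RMI2 after doxorubicin was at 20.6 and 27.8 FPKM in GFP cells, at 21.9 and 24.5 FPKM in NSE4 cells and at 23.3 FPKM in the single SMC5 sample. Again the treatments were separate in all samples. RMI2 rose by 0.65 (SE 0.12, adjusted p = 0.00203) on the averaged log2 scale; it passed in GFP and NSE4 cells. WRN, the helicase-nuclease mutated in Werner syndrome, fell. WRN stood at 8.98 and 6.63 FPKM in GFP, 6.72 and 6.94 FPKM in NSE4 and 6.16 and 5.78 FPKM in SMC5 cells given PBS. WRN after doxorubicin was at 4.31 and 5.097 FPKM in GFP cells, at 4.45 and 5.46 FPKM in NSE4 cells and at 5.02 FPKM in the single SMC5 sample. All doxorubicin samples lay below all PBS samples, with GFP PBS library 1 well above the rest. WRN fell by 0.41 on the averaged log2 scale (SE 0.10, adjusted p = 0.0087). By background, WRN passed in GFP cells alone, at -0.62 (SE 0.16, adjusted p = 0.0203); that call was lost without PBS library 1 (-0.42, adjusted p = 0.12) or doxorubicin library 1 (-0.52, adjusted p = 0.102). A second locus that names WRN reached 1 FPKM in 2 columns, at 1.27 FPKM in GFP doxorubicin library 1 and 1.16 FPKM in SMC5 doxorubicin library 1. Averaging the SMC5 pair left it at 1 FPKM in 1 sample only, and it was not tested.

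In the Fanconi core and ubiquitin transfer group, FANCA, FANCB, FANCE, FANCL and FANCM rose, FANCC fell, and FANCF, FANCG and UBE2T did not pass. FANCE links the core to FANCD2. FANCE stood at 8.595 and 8.34 FPKM in GFP, 6.65 and 8.52 FPKM in NSE4 and 7.101 and 7.35 FPKM in SMC5 cells given PBS. FANCE after doxorubicin was at 13.8 and 14.98 FPKM in GFP cells, at 12.8 and 15.5 FPKM in NSE4 cells and at 13.9 FPKM in the single SMC5 sample. The drug samples were all higher, with little spread in either treatment. FANCE rose by 0.79 (SE 0.09, adjusted p = 1.31e-04) on the averaged log2 scale. FANCA, the subunit most often mutated in Fanconi anaemia, had one of the highest levels of the members. FANCA stood at 50.7 and 50.7 FPKM in GFP, 42.1 and 53.4 FPKM in NSE4 and 43.6 and 44.5 FPKM in SMC5 cells given PBS. FANCA after doxorubicin was at 62.002 and 85.1 FPKM in GFP cells, at 61.6 and 83.2 FPKM in NSE4 cells and at 69.8 FPKM in the single SMC5 sample. There was no overlap between treatments. FANCA rose by 0.58 (SE 0.12, adjusted p = 0.00363) on the averaged log2 scale; by background it passed in NSE4 cells alone.

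FANCB and FANCL sit in the catalytic module of the core. FANCB stood at 1.84 and 1.46 FPKM in GFP, 1.53 and 1.804 FPKM in NSE4 and 2.04 and 1.68 FPKM in SMC5 cells given PBS. FANCB after doxorubicin was at 2.96 and 3.898 FPKM in GFP cells, at 3.29 and 2.38 FPKM in NSE4 cells and at 2.92 FPKM in the single SMC5 sample. Its treatments were separate, at low levels. FANCB rose by 0.57 (SE 0.12, adjusted p = 0.00365) on the averaged log2 scale. For FANCL, the ubiquitin ligase, the treatments overlapped. FANCL stood at 18.2 and 15.1 FPKM in GFP, 18.4 and 18.3 FPKM in NSE4 and 17.4 and 17.5 FPKM in SMC5 cells given PBS. FANCL after doxorubicin was at 21.3 and 24.5 FPKM in GFP cells, at 21.5 and 18.1 FPKM in NSE4 cells and at 23.2 FPKM in the single SMC5 sample. The lowest doxorubicin value fell among the PBS values, in NSE4 cells. FANCL rose by 0.31 (SE 0.08, adjusted p = 0.012) on the averaged log2 scale. FANCM is a translocase that brings the core to stalled forks. FANCM stood at 1.95 and 1.44 FPKM in GFP, 2.04 and 2.61 FPKM in NSE4 and 1.92 and 1.62 FPKM in SMC5 cells given PBS. FANCM after doxorubicin was at 3.297 and 3.03 FPKM in GFP cells, at 3.04 and 4.15 FPKM in NSE4 cells and at 2.45 FPKM in the single SMC5 sample. Overlap was slight, and levels were low. FANCM rose by 0.47 (SE 0.11, adjusted p = 0.00805) on the averaged log2 scale. FANCB, FANCL and FANCM each passed in GFP cells alone when taken by background.

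FANCC, the core subunit that pairs with FANCE, moved opposite to it. FANCC stood at 8.59 and 9.44 FPKM in GFP, 7.59 and 8.38 FPKM in NSE4 and 8.39 and 7.79 FPKM in SMC5 cells given PBS. FANCC after doxorubicin was at 4.56 and 7.08 FPKM in GFP cells, at 6.19 and 6.78 FPKM in NSE4 cells and at 7.42 FPKM in the single SMC5 sample. All doxorubicin samples were below all PBS samples, and GFP doxorubicin values were far apart. FANCC fell by 0.32 on the averaged log2 scale (SE 0.11, adjusted p = 0.0365). This call was lost without either PBS library of any background (adjusted p = 0.0515 to 0.0816) or without either NSE4 doxorubicin library (adjusted p = 0.0797 and 0.0553). By background it passed in GFP cells alone, at -0.58 (SE 0.17, adjusted p = 0.0354). In GFP cells the change was -0.31 without doxorubicin library 1 (adjusted p = 0.158), and the call was also lost without PBS library 1 (-0.64, adjusted p = 0.0863) or PBS library 2 (-0.52, adjusted p = 0.151). FANCG, at a locus that also names VCP, was at 72.4 to 103 FPKM with PBS and 71.4 to 84.2 FPKM with doxorubicin, the highest of the members by mean with PBS; with doxorubicin RAD51C was higher. The sources used here do not say whether reads were assigned by strand, so the reads of genes that share a locus cannot be told apart. UBE2T was at 54.3 to 68.3 FPKM with PBS and 52.8 to 64.2 FPKM with doxorubicin, and FANCF, an adaptor of the core, at 1.53 to 2.46 FPKM with PBS and 1.36 to 1.905 FPKM with doxorubicin. Their log2 changes were -0.16 (SE 0.09, adjusted p = 0.169) for FANCG, -0.03 (SE 0.09, adjusted p = 0.809) for UBE2T and -0.18 (SE 0.12, adjusted p = 0.219) for FANCF.

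BRIP1, also called FANCJ, is a helicase that binds BRCA1. BRIP1 stood at 4.03 and 3.202 FPKM in GFP, 3.18 and 4.46 FPKM in NSE4 and 3.86 and 3.14 FPKM in SMC5 cells given PBS. BRIP1 after doxorubicin was at 6.25 and 8.08 FPKM in GFP cells, at 9.21 and 6.71 FPKM in NSE4 cells and at 6.75 FPKM in the single SMC5 sample. Every sample given doxorubicin exceeded every sample given PBS. BRIP1 rose by 0.83 (SE 0.13, adjusted p = 9.06e-04) on the averaged log2 scale; it passed in GFP and NSE4 cells. FANCD2, a clamp subunit that receives ubiquitin, was at 8.102 to 13.96 FPKM with PBS and 12.4 to 14.8 FPKM with doxorubicin, and it rose by 0.42 (SE 0.13, adjusted p = 0.027) on the averaged log2 scale. The FANCD2 call was lost without GFP PBS library 2 (adjusted p = 0.0606), SMC5 PBS library 1 (adjusted p = 0.0596), GFP doxorubicin library 2 (adjusted p = 0.0630) or NSE4 doxorubicin library 2 (adjusted p = 0.0662). FANCI, its partner in the clamp, was uneven and is described below.

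The structure-selective nucleases cut branched intermediates that escape dissolution. EME1 is the regulatory partner of the MUS81 nuclease. EME1 stood at 6.99 and 7.204 FPKM in GFP, 6.19 and 9.69 FPKM in NSE4 and 6.14 and 9.398 FPKM in SMC5 cells given PBS. EME1 after doxorubicin was at 12.6 and 16.5 FPKM in GFP cells, at 14.2 and 15.1 FPKM in NSE4 cells and at 15.9 FPKM in the single SMC5 sample. The treatments did not overlap, though PBS libraries of NSE4 and SMC5 cells were spread. EME1 rose by 0.91 (SE 0.15, adjusted p = 0.00104) on the averaged log2 scale. GEN1 resolves Holliday junctions by itself. GEN1 stood at 3.65 and 3.35 FPKM in GFP, 2.86 and 4.34 FPKM in NSE4 and 2.996 and 3.81 FPKM in SMC5 cells given PBS. GEN1 after doxorubicin was at 6.097 and 5.65 FPKM in GFP cells, at 6.74 and 6.101 FPKM in NSE4 cells and at 4.86 FPKM in the single SMC5 sample. The lowest drug sample was the single SMC5 sample, still above all PBS samples. GEN1 rose by 0.58 (SE 0.11, adjusted p = 0.00246) on the averaged log2 scale; it passed in GFP and NSE4 cells. MUS81 was at 17.03 to 22.4 FPKM with PBS and 19.7 to 28.6 FPKM with doxorubicin, and it rose by 0.31 (SE 0.09, adjusted p = 0.0205) on the averaged log2 scale. That call was lost without GFP PBS library 2, SMC5 PBS library 1 or GFP doxorubicin library 2 (adjusted p = 0.0527, 0.0502 and 0.0515). SLX4, the scaffold that holds several of these nucleases, was at 3.22 to 4.096 FPKM with PBS and 2.91 to 3.92 FPKM with doxorubicin, with a log2 change of -0.09 (SE 0.10, adjusted p = 0.485).

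**Figure D3:**
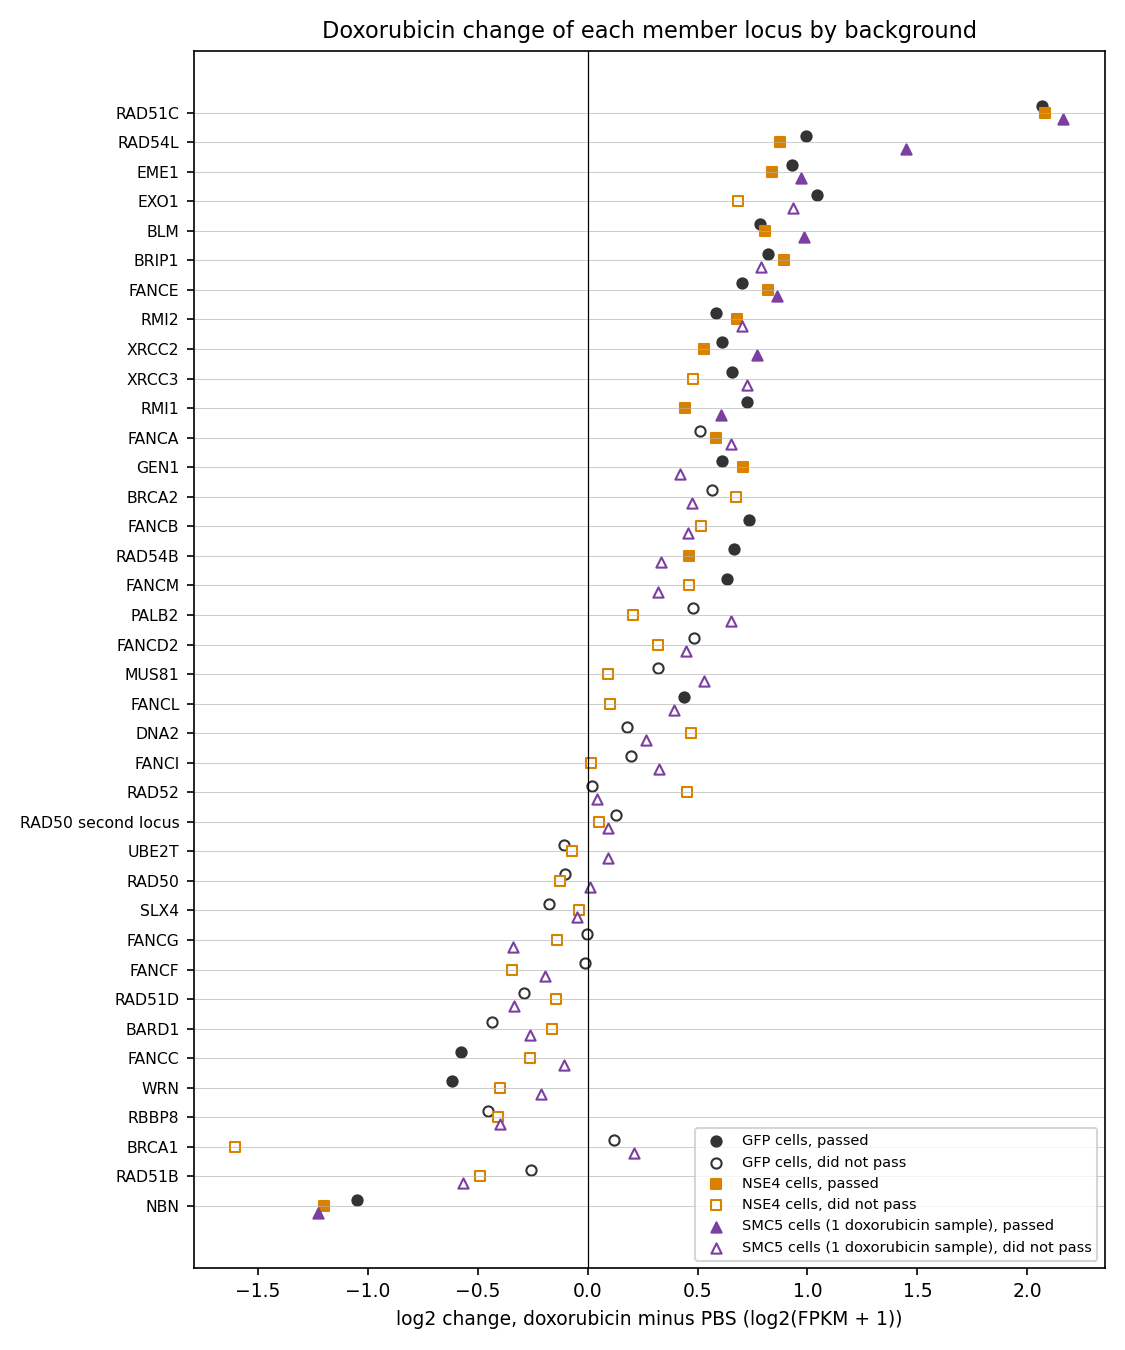
Log2 change of FPKM + 1 with doxorubicin (x axis) of 38 member loci (y axis) in GFP, NSE4 and SMC5 cells; filled symbols passed the test in that background. For 25 loci all 3 changes are above 0, for 10 all are below 0, and for 3, BRCA1, RAD50 and UBE2T, the signs differ. The matching share of all loci was not computed. BRCA1 is below 0 only in NSE4 cells, where PBS library 2 stands at 172 FPKM.

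The direction of change was shared across backgrounds for 35 of the 38 loci, 25 upward and 10 downward. The matching share of all loci was not computed, so these counts do not set the members apart. The 3 doxorubicin comparisons use separate samples. Whether the size differed was tested by the interactions of plasmid and drug: 0 members passed for NSE4 (0.0316% of all loci called) and 0 for SMC5 (0.0189% called), in limma. At an unadjusted p under 0.05 the count was also 0 for both, where 2.87% and 2.78% of all loci lie under it. Member interactions ranged from -0.34 to 0.47 for SMC5 and, without the uneven BRCA1 and FANCI loci, from -0.36 to 0.43 for NSE4. The median 95% interval reached 0.60 on either side of a NSE4 interaction and 0.68 on either side of a SMC5 interaction, so differences in response within those bounds could not be seen.

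The plasmids alone gave 0 member calls. In PBS-treated cells 0 of 38 members differed between NSE4 and GFP cells (0.0442% of all loci called), SMC5 and GFP cells (0% called) or NSE4 and SMC5 cells (0.0379% called). In doxorubicin-treated cells the counts were 0 as well (0.0568%, 0.0316% and 0.0568% of all loci called). At an unadjusted p under 0.05, limma gave 0 members in each of these 6 comparisons. Of all loci, 2.85%, 3.09% and 2.56% lay under it in the PBS comparisons and 3.37%, 3.01% and 2.73% in the doxorubicin comparisons, in the same order. These comparisons share samples with each other. Without the BRCA1 and FANCI loci the differences lay between -0.48 and 0.46 on the log2 scale. The median 95% interval was 0.43 on either side, or 0.52 where the single doxorubicin-treated SMC5 sample enters, so the data do not show that the plasmids leave these genes unchanged within those bounds.

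**Figure D4:**
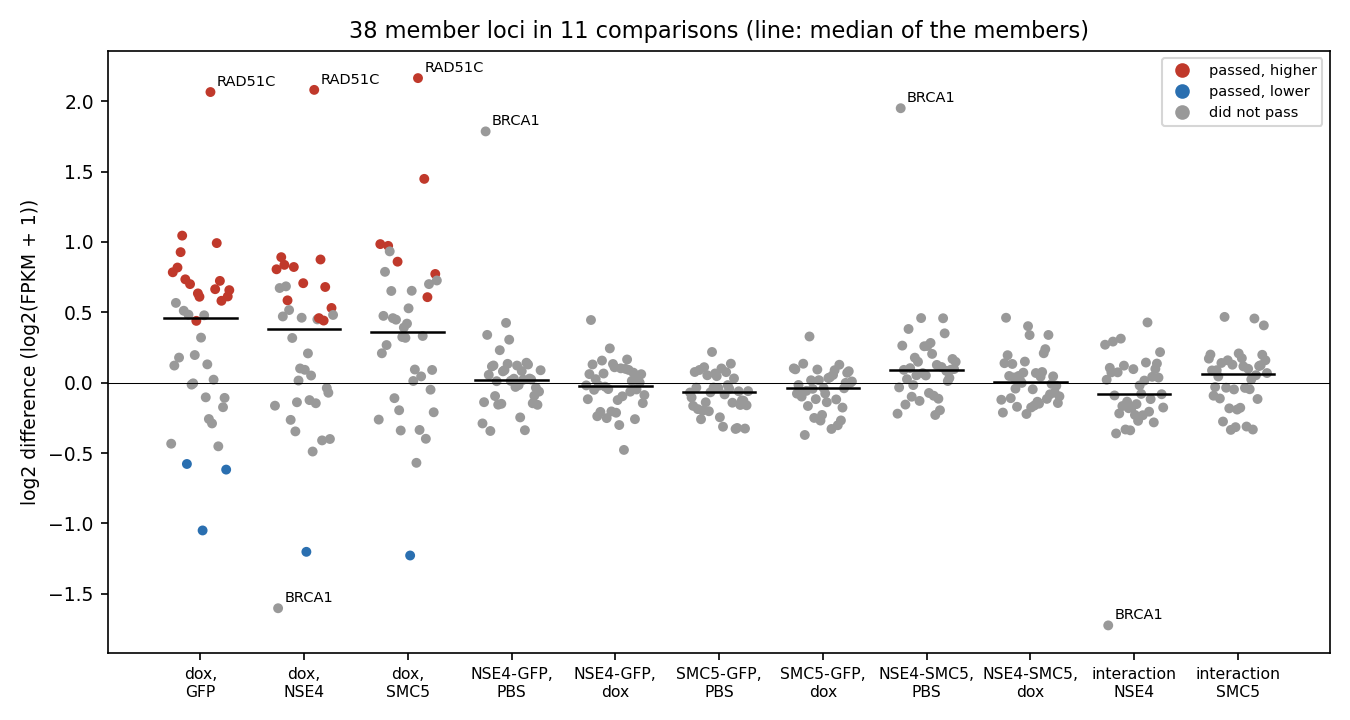
Log2 difference of FPKM + 1 (y axis) of 38 member loci in the 11 designed comparisons (x axis; dox, doxorubicin); each point is a locus, and lines are medians over the members. Coloured points passed the test and occur only in the 3 doxorubicin comparisons; BRCA1 is the point far from the rest in comparisons with NSE4 cells given PBS.

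BRCA1 and FANCI had 1 library far from the others. The BRCA1 locus, which also names noncoding genes, was at 9.12 and 9.199 FPKM in GFP, 6.09 and 172 FPKM in NSE4 and 8.25 and 7.88 FPKM in SMC5 cells given PBS. With doxorubicin it was at 10.9 and 9.24 FPKM in GFP cells, at 9.97 and 11.1 FPKM in NSE4 cells and at 9.48 FPKM in the single SMC5 sample. NSE4 PBS library 2 was thus more than 10 times any other sample, and the other 10 samples lay between 6.09 and 11.1 FPKM. The log2 difference between NSE4 and GFP cells with PBS was 1.79 (SE 1.14, adjusted p = 1). Leaving out NSE4 PBS library 1, so that the high library stood alone, gave a call for BRCA1 in that comparison (4.09 on the log2 scale), in NSE4 against SMC5 cells with PBS (4.25) and in the NSE4 interaction (-4.03). Leaving out the high library instead put the first of these differences at -0.52 (SE 0.15, adjusted p = 1). The FANCI locus was at 23.5 and 40.9 FPKM in GFP, 82.5 and 21.2 FPKM in NSE4 and 26.4 and 34.8 FPKM in SMC5 cells given PBS. With the drug FANCI was at 34.1 and 37.5 FPKM in GFP cells, at 48.4 and 37.3 FPKM in NSE4 cells and at 38.2 FPKM in the single SMC5 sample. Here NSE4 PBS library 1 was the high one, so the outlying library was not the same for both genes.

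**Figure D5:**
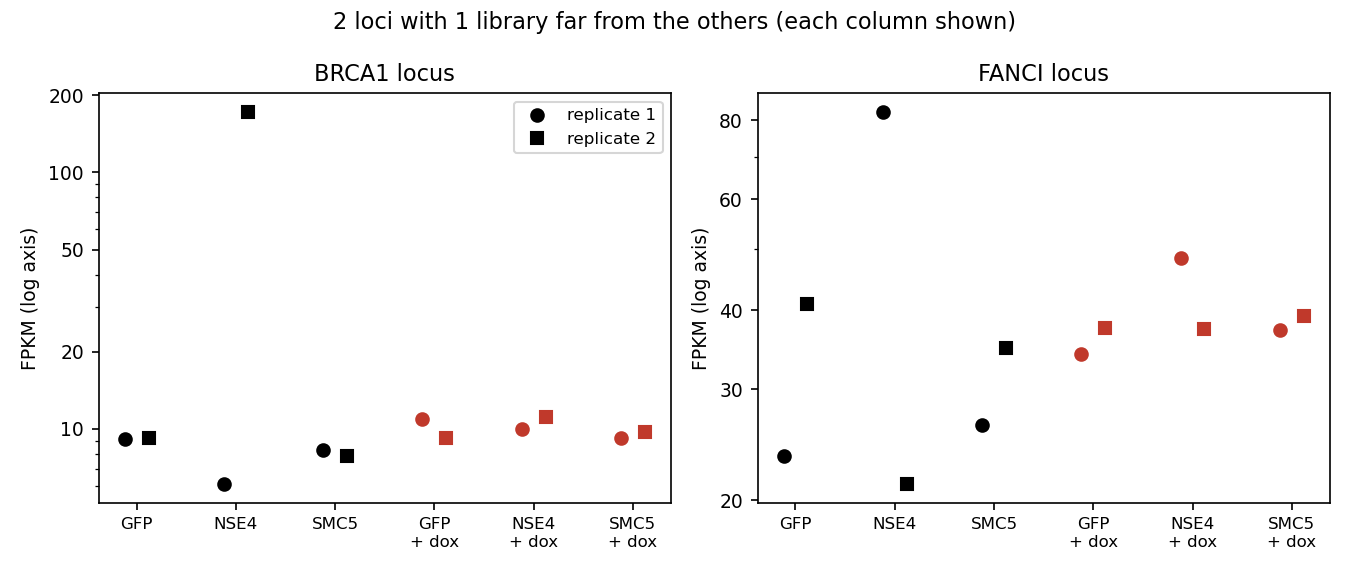
FPKM (y axis, logarithmic) of the BRCA1 and FANCI loci in all 12 columns by group (x axis); circles are replicate 1 and squares replicate 2, black for PBS and red for doxorubicin. NSE4 PBS replicate 2 stands at 172 FPKM for BRCA1, and NSE4 PBS replicate 1 at 82.5 FPKM for FANCI.

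Other genes of the same pathways, listed with earlier results of these data known, were tested at 51 loci. Of these 13 rose and 6 fell in GFP cells, 16 rose and 6 fell in NSE4 cells, and 10 rose and 2 fell in SMC5 cells, beside the shares of all loci given above. The loci named by smallest adjusted p were those of RTEL1, C17orf53, FIGNL1, PSMC3IP and RPA2. C17orf53, now HROB, a factor for MCM8-MCM9 recruitment, had a mean of 4.32 ± 0.0811 FPKM in GFP cells and 13.7 ± 3.13 FPKM after doxorubicin (SD, n = 2), and rose by 1.58 on the averaged log2 scale (SE 0.14, adjusted p = 4.57e-05). FIGNL1, an AAA ATPase that acts in recombination, rose from 10.3 ± 1.27 to 20.5 ± 2.53 FPKM in GFP cells and by 0.91 on the averaged log2 scale (SE 0.08, adjusted p = 5.03e-05). PSMC3IP, a cofactor of strand exchange also known as HOP2, rose by 1.01 on the averaged log2 scale (SE 0.11, adjusted p = 1.42e-04), and RPA2, a subunit of the single-strand binding protein, rose by 0.65 on the averaged log2 scale (SE 0.08, adjusted p = 2.42e-04). The RTEL1 locus also names TNFRSF6B, so its fall from 511 ± 119 to 81.7 ± 22.5 FPKM in GFP cells cannot be assigned to the RTEL1 helicase.

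The cell cycle lists went in opposite directions, the S phase list upward like the members and the G2/M list downward. Of 18 S phase genes, such as PCNA and the MCM helicase subunits, 8 rose in GFP, 7 in NSE4 and 5 in SMC5 cells and 0 fell in each, with median log2 changes of 0.67, 0.71 and 0.66. In the average 14 of the 18 rose. Of all loci 17%, 16.3% and 11% rose in GFP, NSE4 and SMC5 cells, and 28% rose in the average. The shares of all loci that fell in GFP, NSE4 and SMC5 cells were 14.1%, 13.9% and 9.87%. Of 18 G2/M genes, such as CCNB1 and PLK1, 1, 1 and 0 rose and 6, 5 and 4 fell in the 3 backgrounds, with medians of -0.17, -0.31 and -0.28. Their part in the change of the recombination and Fanconi genes was not tested.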

How the data were processed

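RNA-seq of 12 HCT116 libraries was used. The deposited table holds FPKM values for 57908 loci by 12 columns; per the submitters' processing notes the authors used TopHat and Cufflinks, with versions and genome build not given in the sources used here. All 12 columns were mapped to samples by their names, and 0 columns were left unmapped. The near-identical pair of doxorubicin-treated SMC5 columns was averaged as 1 sample.

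Values were tested as log2(FPKM + 1), which understates changes of low genes, with limma 3.58.1 in R 4.3.3: all 6 groups in 1 fit, an intensity trend, 15833 loci at 1 FPKM or more in at least 2 samples, and Benjamini-Hochberg adjustment per comparison at 0.05. The fit was tested on simulated data. Summaries used Python 3.11.15 and pandas 2.3.3, and figures matplotlib 3.10.9. FPKM carry no counts, so the depth behind single values is known only from their spacing.

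The members and lists were chosen with earlier results of these data known. Members called in at least 1 of the 11 comparisons whose locus names no other coding gene are given in every sample, the others by range; up to 4 other pathway genes per doxorubicin comparison were named by smallest adjusted p. Another gene of the pathway list is not reported here and was left out of its counts. The average over backgrounds was added after the values were seen. Alternatives left out each library, kept the 12 columns separate, fitted the compared groups alone, dropped the intensity trend, or used a replicate block, a pseudocount of 0.1, 2 other filters or 2 other scalings.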

Additional observations from a re-analysis of the deposited data

How the results depend on the processing

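No member call changed direction under any alternative tried. For calls within a background, leaving out a library could not change the direction, because samples of the treatments did not overlap. The averaged doxorubicin comparison gave 22 to 27 member calls in all of them, against 26. Within a background the counts were less stable. Shares of all loci called under the alternatives are not given here, so these counts do not set the members apart. Without a filter on low values the calls numbered 7 in GFP, 5 in NSE4 and 3 in SMC5 cells, against 19, 13 and 8, and with only the groups compared in the fit they numbered 9, 2 and 0, where fewer samples entered. With the 12 columns as separate samples SMC5 cells had 17 calls, a fit that counts 1 sample as 2. Leaving out 1 library in turn gave 6 to 13 calls in GFP, 4 to 16 in NSE4 and 3 to 8 in SMC5 cells. It gave 0 to 1 in NSE4 against GFP cells with PBS, in NSE4 against SMC5 cells with PBS and in the NSE4 interaction, the 1 being BRCA1; a sample left alone in its group is assumed to vary like the other groups. With the replicate block the calls numbered 20, 14 and 12 by background and 27 in the average. Same-numbered samples deviated together with correlations of only -0.0389 to 0.0732, so they share a number and no more is known. Depth limits the low members most, and members under 5 FPKM with PBS numbered 13 of 39.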
